A study of Mus musculus with 8 samples.

Results

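The 10 genes described here are core clock and clock output genes: the activators *Arntl*, *Clock* and *Npas2*, the repressors *Per1*, *Per2*, *Per3*, *Cry1* and *Cry2*, and the output transcription factors *Dbp* and *Tef*. They were chosen by gene symbol as a check on clock phase between the cultures, and all 10 were found among the 18533 gene symbols of the series. The samples were MASMCs, smooth muscle cells in primary culture from the mouse aorta, whose adventitia and endothelium had been stripped off, and the mice were male and 4 to 6 weeks old. They came from WT mice (n = 4) and from *Hint1*-/- mice (n = 4), a constitutive deletion, and all 8 samples had received PDGF-BB at 20 ng/mL for 24 hours. PDGF-BB is a growth factor that drives smooth muscle cells away from the contractile state. No untreated sample and no second harvest time was analysed here, so the data give the level of each clock gene at a single time under PDGF-BB and no rhythm.

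In the mammalian clock, ARNTL (also called BMAL1) pairs with CLOCK or NPAS2 and switches on genes that carry E-boxes in their regulatory DNA, among them the *Per* and *Cry* genes, *Dbp* and *Tef*. PER and CRY proteins accumulate, return to the nucleus and silence their own activators, which closes a loop of about a day. A second loop runs through nuclear receptors: REV-ERB proteins (*Nr1d1*, *Nr1d2*) repress *Arntl* and ROR proteins activate it. As a consequence, *Arntl* and *Npas2* peak at about the opposite time of day to *Dbp*, *Per3* and *Nr1d1*. Cultured smooth muscle cells carry such a clock, and serum, glucocorticoid or a growth factor can reset it.

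Total estimated counts per sample lay between 20778077 and 20888041. *Hint1*, the targeted gene, averaged 111 ± 1.72 CPM in WT samples, against 35.6 ± 1.46 CPM in the *Hint1*-/- samples (SD, n = 4 each), where CPM is a gene's count as a rate of the scaled library total, and the genotypes did not overlap. The *Hint1*-/- samples thus still held 713 to 778 *Hint1* counts, 0.321 of the WT level in the fit. The fit by edgeR's quasi-likelihood test covered 13535 genes, and a gene was called at a Benjamini-Hochberg adjusted p under 0.05 over all of them. By that rule 21.5% of the tested genes differed between genotypes, 11.2% higher and 10.2% lower in *Hint1*-/- MASMCs. The median log2 fold change of all genes was 0.00 and the median of its absolute size was 0.09. Whether the replicates came from separate mice is not given in the sources used here, so each p-value measures the spread between these samples.

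*Per3*, *Cry2* and *Dbp* were higher in *Hint1*-/- MASMCs, by 29.0%, 21.4% and 20.6%, with no overlap between genotypes, which was so for 23.0% of all tested genes. *Clock* was 10.8% higher with overlapping samples. *Arntl*, *Npas2*, *Per1*, *Per2*, *Cry1* and *Tef* did not pass the test. Thus 4 of the 10 clock genes were called, all higher, against 21.5% of all tested genes in either direction, 11.2% in the higher direction, and 19.3% in either direction among the 8547 genes whose mean count lay within the range of the 10 (36 to 1298 counts). The fitted log2 fold change was above 0 for 9 of the 10, against 50.1% of all genes. Its median over the 10 was 0.18, and none reached the fold change of 1.5 that the study applied, a limit that 2.83% of all genes passed together with the limit on p. DESeq2 called 3 of the 10 and limma-voom 4, against 2321 and 2878 genes in all, also with 0 of the 10 past the fold limit in either. At an unadjusted p under 0.05 edgeR placed 5 of the 10, with no share of all genes taken at that limit, so no excess can be read from it.

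**Figure D1:**
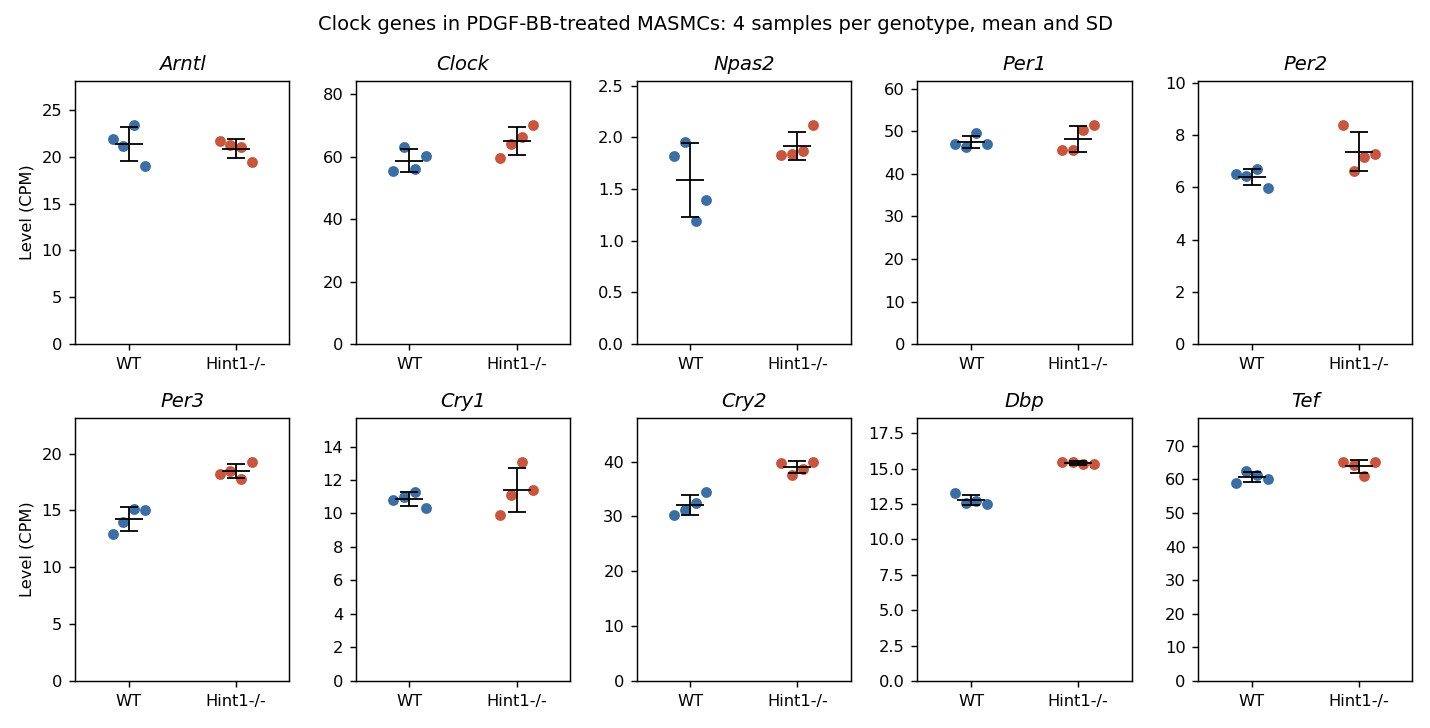
Level of each of the 10 clock genes in CPM (y axis from 0), with 1 point per sample for WT (blue) and *Hint1*-/- (red) MASMCs under PDGF-BB, and bars for the mean and SD of 4 samples. *Per3*, *Cry2* and *Dbp* separate without overlap, from group means of 14.3, 32.1 and 12.8 CPM in WT to 18.4, 39.0 and 15.4 CPM, while the other 7 genes overlap between genotypes.

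**Figure D2:**
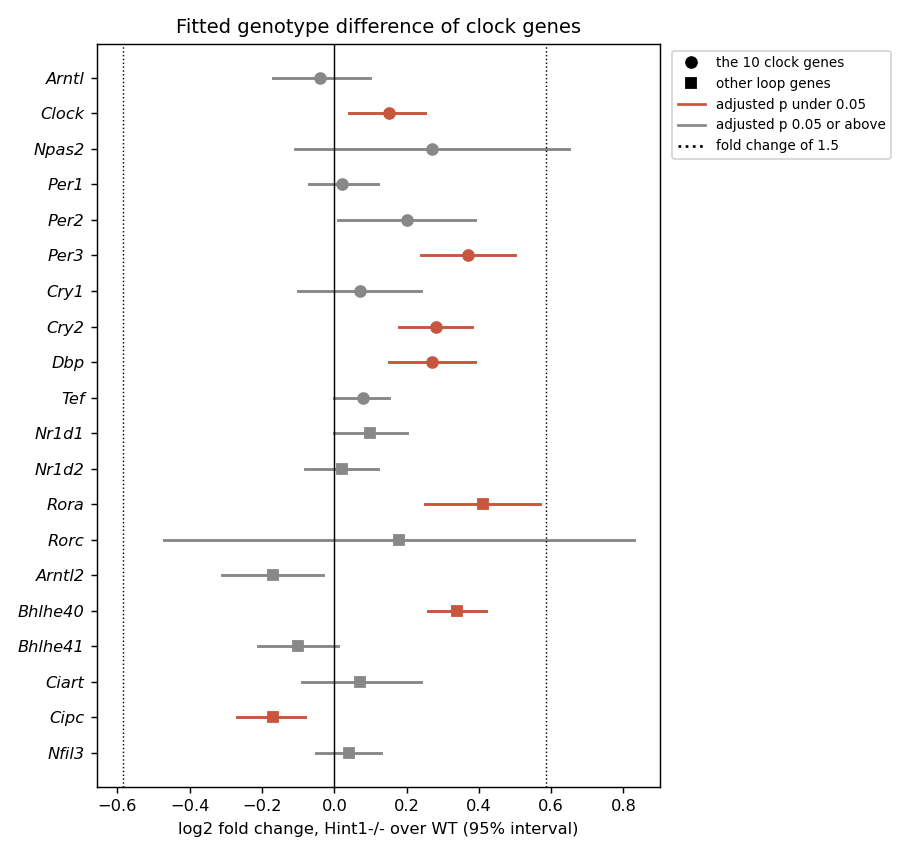
Fitted log2 fold change, *Hint1*-/- over WT, with its 95% interval for the 10 clock genes (circles) and the 10 tested genes of the accessory loops (squares), in red where the adjusted p was under 0.05. All points lie between the dotted lines that mark a fold change of 1.5, and the red ones are *Clock*, *Per3*, *Cry2*, *Dbp*, *Rora* and *Bhlhe40* to the right and *Cipc* to the left.

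Markers of other cell types moved with genotype in the same libraries. The calls below stand beside 21.5% of all tested genes called in either direction, 11.2% higher and 10.2% lower. The summed level of 4 macrophage markers (*Adgre1*, *Cd68*, *Csf1r* and *Ptprc*), all called lower, was 763 to 859 CPM in WT and 587 to 629 CPM in *Hint1*-/- samples. That of 4 Schwann cell markers, all called lower, was 36.5 to 41.8 CPM and 7.0 to 9.3 CPM. For fibroblast markers it was 1440 to 1560 CPM and 2410 to 2530 CPM, with *Dcn*, *Lum* and *Pdgfra* higher and *Dpt* lower. Smooth muscle markers summed to 1330 to 1450 CPM and 1100 to 1190 CPM, with *Acta2*, *Myh11* and *Cnn1* lower, *Smtn* higher and *Tagln* not called. *Tagln* was called lower with upper-quartile normalization (adjusted p = 0.0495), without WT replicate 2 (0.0387) and without *Hint1*-/- replicate 2 (0.0362). In whole cultures, fewer cells of a type and less RNA per cell cannot be told apart. Endothelial markers summed to between 3.38 and 5.22 CPM in every sample, and 0 of the 3 tested were called by edgeR, DESeq2 or limma-voom. *Cdh5* alone had an unadjusted p under 0.05, and it was called without WT replicate 2 with an adjusted p of 0.0254. Adipocyte markers, at 0.24 CPM or less in sum, were too low to be tested. Of 6 proliferation markers *Mki67*, *Top2a*, *Ccnb1* and *Cdk1* were higher and *Pcna* and *Mcm2* lower, with summed levels of 743 to 796 CPM and 789 to 827 CPM, and the calls of *Top2a* and *Mcm2* were lost without single samples (adjusted p up to 0.0602 and 0.157). The call of *Mcm2* was also lost under DESeq2 (0.0734) and with no filter on low counts (0.0514). The part of these shifts in the differences of *Per3*, *Cry2*, *Dbp* and *Clock* was not tested.

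Of the activators, *Arntl* encodes the protein that pairs with CLOCK or NPAS2. It was at 21.9, 21.2, 23.4 and 19.0 CPM in WT replicates 1 to 4 and at 21.7, 21.3, 21 and 19.4 CPM in *Hint1*-/- replicates 1 to 4. The ranges lay on top of each other, and the WT samples held both the highest and the lowest value. edgeR fitted a log2 fold change of −0.04 (95% interval −0.17 to 0.10, adjusted p = 0.755).

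*Clock*, the partner of ARNTL that also acetylates histones, lies on chromosome 5 of mm10 from 76209868 to 76304792. It was at 55.5, 63.2, 56.0 and 60.2 CPM in WT and at 59.7, 64.1, 66.3 and 70.2 CPM in *Hint1*-/- replicates 1 to 4. The upper WT samples, replicates 2 and 4, lay within the *Hint1*-/- range. The fitted log2 fold change came to 0.15 (SE 0.050, edgeR adjusted p = 0.0414, two-sided exact permutation test p = 0.0857). This call did not hold under DESeq2 (adjusted p = 0.0669) or upper-quartile normalization (0.0566). It was also lost without WT replicate 1 (0.130), WT replicate 3 (0.134), *Hint1*-/- replicate 2 (0.0676), replicate 3 (0.0926) or replicate 4 (0.156), and over all 16 alternatives the adjusted p ranged from 0.012 to 0.156.

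*Npas2*, which can stand in for CLOCK, was the scarcest of the 10, at 38, 41, 25 and 29 counts in WT and 38, 38, 39 and 44 counts in *Hint1*-/- samples. WT replicates 3 and 4 were the low ones, and WT replicates 1 and 2 lay among or just below the *Hint1*-/- values. Its log2 fold change was 0.27 (95% interval −0.11 to 0.65, edgeR adjusted p = 0.331). The interval was the widest of the 10.

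The *Per* genes encode the repressors that time the negative phase, and *Per1* and *Per2* also respond quickly to cAMP, serum and, for *Per1* most clearly, glucocorticoid. *Per1* was at 47.0, 46.4, 49.7 and 46.9 CPM in WT and at 45.5, 45.6, 50.3 and 51.5 CPM in *Hint1*-/- samples. *Hint1*-/- replicates 1 and 2 lay below all WT samples and replicates 3 and 4 above them. edgeR fitted a log2 fold change of 0.02 (95% interval −0.07 to 0.12, edgeR adjusted p = 0.794). *Per1* lies on chromosome 11, 14.2 Mb from *Hint1*.

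*Per2* was at 6.52, 6.43, 6.69 and 5.99 CPM in WT and at 8.39, 6.62, 7.16 and 7.27 CPM in *Hint1*-/- samples. *Hint1*-/- replicate 1 was the high sample, and replicate 2 lay just under the highest WT sample. The fitted log2 fold change came to 0.20 (95% interval 0.01 to 0.39, edgeR adjusted p = 0.133, two-sided exact permutation test p = 0.0571), at 125 to 174 counts per sample. Over the alternatives the adjusted p ranged from 0.0832 to 0.37, so *Per2* passed in none of the 16.

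*Per3* changed most of the 10. It is the family member that is dispensable for the core loop and follows it as an output. The gene lies on chromosome 4 of mm10 from 151003652 to 151044665, on the minus strand. It was at 12.9, 14.0, 15.1 and 15 CPM in WT and at 18.2, 18.5, 17.8 and 19.3 CPM in *Hint1*-/- samples. The lowest *Hint1*-/- sample was above the highest WT one. Its log2 fold change was 0.37 (SE 0.063, 95% interval 0.24 to 0.50, edgeR adjusted p = 0.000285). The two-sided exact permutation test gave p = 0.0286, the smallest p that 70 assignments of 4 against 4 allow. The call held in all 16 alternatives, with adjusted p between 0.000105 and 0.00186.

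The promoter of *Per3* is shown because D-boxes, the sites that DBP and TEF bind, are an established route to this gene, and both factors are among the 10. The sequence is the RefSeq window of the 250 bases before the start site on GRCm38.p6, the assembly also called mm10 (chr4:151044666-151044915, minus strand), 5′ to 3′, with matches to TTATGTAA in capitals.
*Per3* promoter: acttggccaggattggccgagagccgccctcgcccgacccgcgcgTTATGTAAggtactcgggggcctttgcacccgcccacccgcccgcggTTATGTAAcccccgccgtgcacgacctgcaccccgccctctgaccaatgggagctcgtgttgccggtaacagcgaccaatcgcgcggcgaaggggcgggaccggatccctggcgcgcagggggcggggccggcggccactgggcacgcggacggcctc
The matches begin 205 and 158 bases before the start site. The search covered 300 bases per start site, the 250 shown and the first 50 of the transcript. Of 32851 such RefSeq windows, 0.938% held TTATGTAA on either strand, and 7 windows (0.0213%) held at least 2 matches. A match is a string of letters in the window, and binding was not measured.

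The *Cry* genes encode the strongest repressors of the ARNTL and CLOCK dimer, and of the pair only *Cry2* was called. *Cry1* was at 10.8, 11, 11.3 and 10.3 CPM in WT and at 9.93, 11.1, 13.1 and 11.4 CPM in *Hint1*-/- samples. The *Hint1*-/- samples spread to both sides of the WT range, with replicate 3 high and replicate 1 low. edgeR fitted a log2 fold change of 0.07 (95% interval −0.10 to 0.24, edgeR adjusted p = 0.598).

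*Cry2*, on chromosome 2 of mm10 from 92403646 to 92434043, was at 30.3, 31.1, 32.5 and 34.5 CPM in WT. It was at 39.8, 37.6, 38.6 and 40.0 CPM in *Hint1*-/- samples, all above the WT samples. The fitted log2 fold change came to 0.28 (SE 0.046, 95% interval 0.18 to 0.38, edgeR adjusted p = 0.000219, two-sided exact permutation test p = 0.0286), and the adjusted p lay between 5.87e-05 and 0.00129 in all 16 alternatives. *Cry2* shares 295 exon bases with *D930015M05Rik*, a transcript on the opposite strand that has no row in the count tables, and 4 of its 8 values were not whole numbers. Whether the counting used strand is not given in the sources used here.

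E-box letters were looked for in the same windows of 300 bases, as CACGTG and as the E′-box CACGTT, whose reverse complement is AACGTG. The 250 bases before the *Per1*, *Cry1* and first *Tef* start sites also meet exons of the same gene in GENCODE M21. The matches before the start sites are shown with 10 bases on each side, motif in capitals. They sit in the RefSeq windows of genes that were called and of genes that were not.
*Per1* E-box: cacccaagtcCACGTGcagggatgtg
*Cry1* E-box: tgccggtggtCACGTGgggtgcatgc
*Cry1* E′-box: acacttcagaAACGTGaggtgccggt
*Cry2* E′-box: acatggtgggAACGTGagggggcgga
*Tef* E-box, first start site: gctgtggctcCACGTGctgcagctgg
*Tef* E-box, second start site: cctggcccagCACGTGtctacatcgt
They begin 166, 60, 79, 166, 127 and 138 bases before the start sites. By position they are chr11:69098773-69098798, chr10:85185099-85185124, chr10:85185118-85185143, chr2:92434220-92434245, chr15:81802536-81802561 and chr15:81811266-81811291 on GRCm38.p6, the *Cry1* and *Cry2* ones on the minus strand. Among all windows, 7.15% held CACGTG and 4.68% held CACGTT on either strand. RefSeq windows were at hand for 9 of the 10 genes, *Per2* being the exception, with 14 windows in all. Of these 9 genes, 3 held an E-box and 2 an E′-box, which is 4 and 2 of the 14 windows. The D-box form TTACGTAA, the cAMP response element TGACGTCA and the ROR element form TGGGTCA had 0 matches (0.119%, 1.79% and 3.98% of all windows). The ROR element form TAGGTCA had a single match, 31 bases into the transcript from the second *Arntl* start site (2.61% of all windows). The called genes *Cry2* and *Per3* and the uncalled genes *Per1*, *Cry1*, *Tef* and *Arntl* thus held a match, and the windows of *Clock*, *Dbp* and *Npas2* did not hold these letters.

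*Dbp* and *Tef* encode related leucine zipper factors that carry clock time to genes with D-boxes. *Dbp*, on chromosome 7 of mm10 from 45705088 to 45710203, was at 13.3, 12.6, 12.7 and 12.5 CPM in WT and at 15.5, 15.5, 15.3 and 15.3 CPM in *Hint1*-/- samples. The genotypes did not overlap. The 4 *Hint1*-/- samples, at 318 to 322 counts, had an SD of 0.116 CPM. That spread is narrower than counting alone gives, so it does not measure reproducibility. Its log2 fold change was 0.27 (SE 0.058, 95% interval 0.15 to 0.39, edgeR adjusted p = 0.00212, two-sided exact permutation test p = 0.0286), and the adjusted p reached at most 0.014 in the 16 alternatives. None of the 8 *Dbp* values was a whole number. *Dbp* shares 539 exon bases, 18.0% of its merged exons, with the opposite-strand gene *Sphk2*. *Sphk2* itself averaged 68.7 ± 1.26 CPM in WT, against 64.6 ± 3.61 CPM in the knockout (± SD, n = 4 each), a log2 fold change of −0.09 (edgeR adjusted p = 0.124). The share of *Dbp* counts that came from *Sphk2* reads was not tested.

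*Tef* was at 58.9, 62.4, 61.4 and 60.0 CPM in WT and at 65.1, 64.3, 61.1 and 65.3 CPM in *Hint1*-/- samples. *Hint1*-/- replicate 3 fell within the WT range and the other 3 lay above it. edgeR fitted a log2 fold change of 0.08 (SE 0.036, edgeR adjusted p = 0.154), with an upper 95% bound of 0.15.

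Because some family members passed the test and others did not, the ratio of every pair of relatives within a family was compared between genotypes, 6 pairs in all, a comparison added after the values had been seen. *Per3* over *Per1* was −1.85, −1.72, −1.71 and −1.63 in WT and −1.32, −1.30, −1.49 and −1.41 in *Hint1*-/- samples on the log2 CPM scale. Its mean was 0.35 higher in *Hint1*-/- samples, with no overlap. *Dbp* over *Tef* was 0.19 higher and *Per2* over *Per1* 0.17 higher, also without overlap. These 3 pairs each had p = 0.0286 in a two-sided exact permutation test and p = 0.0571 after Benjamini-Hochberg adjustment over the 6 pairs. Since 0.0286 is the smallest p of this design, an adjusted p under 0.05 could be reached only with at least 4 of the 6 pairs fully separated, so the correction says nothing about these 3 pairs by themselves. *Cry2* over *Cry1* was 0.22 higher (exact permutation p = 0.0571, adjusted 0.0857), *Per3* over *Per2* 0.17 higher (0.2, adjusted 0.24) and *Npas2* over *Clock* 0.13 higher (0.429, adjusted 0.429), each with overlapping samples. No pair had an adjusted p under 0.05. Because of that limit, and because the comparison was added after the values were seen, it cannot decide whether relatives responded differently.

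Ratios of genes that peak at opposite times were read as a description of clock state, with no test. *Arntl* over *Dbp* was 0.72, 0.75, 0.88 and 0.60 in WT and 0.48, 0.46, 0.45 and 0.34 in *Hint1*-/- samples on the log2 CPM scale. *Arntl* over *Per3* was 0.75, 0.60, 0.63 and 0.33 in WT and 0.26, 0.21, 0.24 and 0.01 in *Hint1*-/- samples. Both ratios were lower in every *Hint1*-/- sample than in every WT sample, by 0.30 and 0.40 on average. *Dbp* and *Per3*, not *Arntl*, carried most of that difference, so both ratios largely repeat the differences of these genes given above. The remaining ratios did not separate the genotypes. *Arntl* over *Nr1d1* averaged −2.09 ± 0.087 in WT and −2.23 ± 0.092 in *Hint1*-/- samples (± SD, n = 4 each). *Npas2* over *Per2* averaged −1.97 ± 0.32 and −1.89 ± 0.18 (± SD, n = 4 each).

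**Figure D3:**
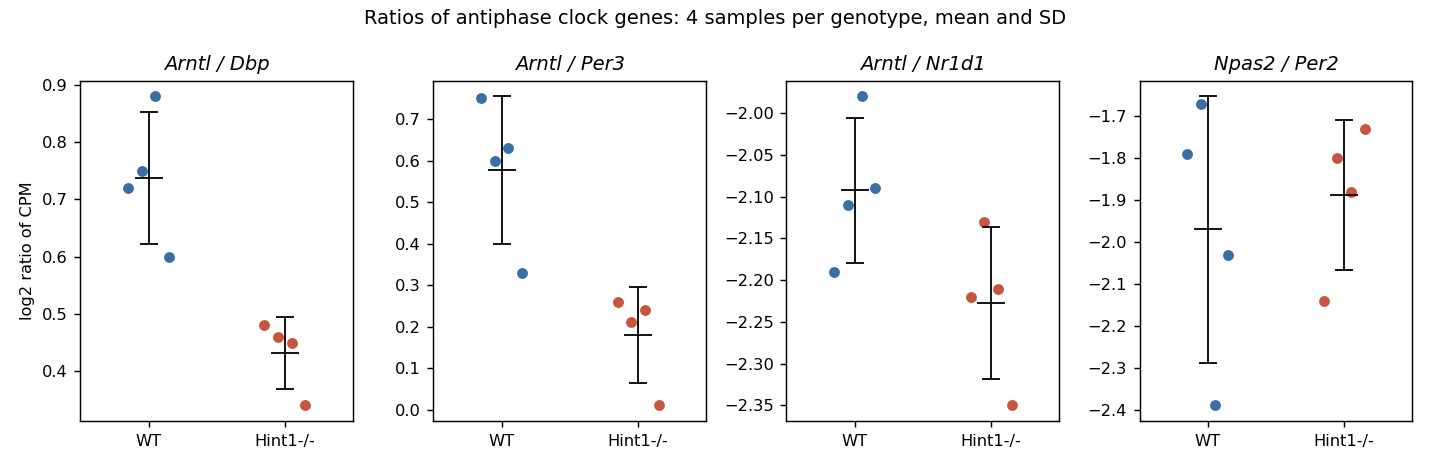
Log2 ratio of CPM for 4 pairs of genes that peak at opposite times, with 1 point per sample for WT (blue) and *Hint1*-/- (red) MASMCs and bars for the mean and SD of 4 samples. The ratios to *Dbp* and *Per3* are lower in all 4 *Hint1*-/- samples (means 0.43 and 0.18, against 0.74 and 0.58 in WT), and those of *Arntl* to *Nr1d1* and of *Npas2* to *Per2* overlap.

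The sample with the highest level differed from gene to gene. *Hint1*-/- replicate 4 was the highest of its genotype for 6 genes (*Clock*, *Npas2*, *Per1*, *Per3*, *Cry2* and *Tef*) and the lowest for *Arntl*. WT replicate 3 was the highest for 5 genes, which included both *Arntl* and *Per3*. WT replicate 1 was the lowest for *Clock*, *Per3*, *Cry2* and *Tef* and the highest for *Dbp*.

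The accessory loop genes were read from the same fit. All 12 listed genes were in the files, 10 passed the filter on low counts, *Rora* and *Bhlhe40* were higher, *Cipc* was lower and 7 did not pass the test. This is 30.0% called against 21.5% of all genes, with a median log2 fold change of 0.06. The genotypes did not overlap for 5 of the 10, against 23.0% of all tested genes. Of these, *Rora* and *Bhlhe40* were higher, and *Cipc* and the uncalled *Arntl2* and *Bhlhe41* were lower. *Rorb* and *Hlf*, at 15 or fewer counts per sample, did not pass that filter. *Rorb*, which encodes the ROR receptor RORβ, was at 6, 4, 8 and 4 counts in WT and at 13, 15, 12 and 5 counts in *Hint1*-/- samples, of which replicate 4 lay within the WT range. Without that replicate *Rorb* entered the fit and was called higher (log2 fold change 1.27, edgeR adjusted p = 0.0215), and with all samples and no filter it was not (1.03, adjusted p = 0.104).

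*Nr1d1*, which encodes REV-ERBα, was the most abundant of these genes, averaging 91.2 ± 7.88 CPM in WT, against 97.8 ± 3.38 CPM in the knockout (± SD, n = 4 each). Its log2 fold change was 0.10 (edgeR adjusted p = 0.169), and without WT replicate 1 it was 0.15 with an adjusted p of 0.0408. *Nr1d2*, the related receptor REV-ERBβ, had a log2 fold change of 0.02 (95% interval −0.08 to 0.12, edgeR adjusted p = 0.82). *Rora*, which encodes the activating receptor RORα, rose from 18.4 ± 2.08 to 24.4 ± 2.09 CPM (± SD, n = 4 each). Its log2 fold change of 0.41 (SE 0.076, edgeR adjusted p = 0.000622) exceeded that of each of the 10 clock genes, and the genotypes did not overlap.

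*Bhlhe40* encodes DEC1, an E-box-binding repressor that is itself induced through E-boxes. It rose from 72.9 ± 1.68 to 92.3 ± 4.85 CPM (± SD, n = 4 each), a log2 fold change of 0.34 (SE 0.040, edgeR adjusted p = 3.93e-06). *Bhlhe41*, its relative DEC2, had a log2 fold change of −0.10 (adjusted p = 0.176). *Cipc*, whose protein inhibits CLOCK, fell from 33.3 ± 1.22 to 29.6 ± 0.821 CPM (± SD, n = 4 each), a log2 fold change of −0.17 (edgeR adjusted p = 0.00952). The calls for *Rora*, *Bhlhe40* and *Cipc* held in all alternatives on p. *Arntl2*, the ARNTL relative, had a log2 fold change of −0.17 at an adjusted p of 0.0811, *Ciart*, a repressor driven by E-boxes, 0.07 at 0.571, and *Nfil3*, which competes with DBP and TEF for D-boxes, 0.04 at 0.577, all from edgeR's test.

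The 12 kinases, ubiquitin ligases and partner proteins that set the speed of the clock, such as the casein kinases *Csnk1d* and *Csnk1e*, were all tested. Of the 12, 0 were called by edgeR, DESeq2 or limma-voom, against 21.5% of all tested genes called by edgeR. At an unadjusted p under 0.05 edgeR placed 1 of the 12, with no share of all genes taken at that limit. *Csnk1d* and *Csnk1e* had log2 fold changes of 0.02 and 0.00, with 95% intervals from −0.04 to 0.09 and from −0.08 to 0.08.

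Of 8 genes with established clock-driven or clock-linked expression, 7 were tested and only *Cdkn1a*, the cell cycle inhibitor p21, was called, which is 14.3% of them against 21.5% of all tested genes. Their median log2 fold change was −0.02, against 0.00 over all genes. *Cdkn1a* was lower, by 0.11 on the log2 scale (edgeR adjusted p = 0.0396). That call was lost without WT replicate 1 (0.145), WT replicate 3 (0.0895), *Hint1*-/- replicate 3 (0.0958) or *Hint1*-/- replicate 4 (0.114). *Wee1*, a gene with E-boxes whose kinase restrains entry into mitosis, had a log2 fold change of 0.13 (edgeR adjusted p = 0.106). That of *Nampt*, the rate-limiting enzyme of NAD salvage, was −0.04 (edgeR adjusted p = 0.534). *Gys2*, at no more than 1 count in any sample, was not tested.

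Genes of signals that reset cultured clocks moved in both directions. Of 8 glucocorticoid-linked genes, 7 were tested, and *Sgk1* (log2 fold change 0.55), *Errfi1* (0.44) and *Klf9* (0.22) were higher with no overlap between genotypes. With *Nr3c1* this is 57.1% called, against 21.5% of all tested genes, of which 11.2% were called higher and 23.0% did not overlap in either direction, and the median log2 fold change of the 7 was 0.08. *Nr3c1*, the glucocorticoid receptor gene, was lower by 0.13 (edgeR adjusted p = 0.0234), which was lost without WT replicate 2 or 3 or *Hint1*-/- replicate 1, 2 or 3 (adjusted p between 0.0506 and 0.0864). *Fkbp5* and *Tsc22d3*, both direct glucocorticoid targets, had log2 fold changes of −0.06 and 0.08 (edgeR adjusted p = 0.46 and 0.557), and *Dusp1* one of −0.04 (0.583). *Zbtb16*, at no more than 3 counts, was not tested.

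Of the 8 cAMP and serum responders, 2 were called, both lower, which is 25.0% of them and near the 21.5% of all tested genes, of which 10.2% were called lower. The median log2 fold change of the 8 was −0.02. *Nr4a1*, an immediate-early nuclear receptor gene, had a log2 fold change of −0.36 (edgeR adjusted p = 0.00161). *Fos* had one of −0.26 (adjusted p = 0.0365), which did not hold under DESeq2 (0.106) or without WT replicate 1 (0.1), 2 (0.0647) or 3 (0.109) or *Hint1*-/- replicate 1 (0.115) or 4 (0.0922). *Crem* and *Sik1*, both induced through the cAMP response element, had log2 fold changes of 0.03 and −0.01 (edgeR adjusted p = 0.735 and 0.966). *Egr1* had one of 0.09 (adjusted p = 0.098), called without WT replicate 2 (0.0226).

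To compare the 10 genes with each other, CPM was divided by the length of merged exons in GENCODE M21, in kilobases. On that scale *Per1* was the highest in WT samples, at 8.43 ± 0.261 CPM per kb (SD, n = 4), followed by *Tef* at 7.71 ± 0.198 and *Cry2* at 5.09 ± 0.29. *Clock* (4.28 ± 0.268) and *Dbp* (4.27 ± 0.118) did not differ beyond their spread. *Cry1* (3.25 ± 0.122), *Arntl* (2.84 ± 0.246), *Per3* (1.49 ± 0.106), *Per2* (1.09 ± 0.0513) and *Npas2* (0.332 ± 0.0745) followed. In *Hint1*-/- samples only *Clock* and *Dbp* changed places, with *Dbp* at 5.14 ± 0.0389 and *Clock* at 4.74 ± 0.319 CPM per kb. The *Dbp* spread is again narrower than counting alone gives. The order depends on the transcript length used: with the longest coding transcript, *Tef* stood above *Per1* (13.8 against 10.2 CPM per kb) and *Arntl*, at 7.18, moved up from rank 7 to rank 4, while *Per3*, *Per2* and *Npas2* remained the lowest 3.

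**Figure D4:**
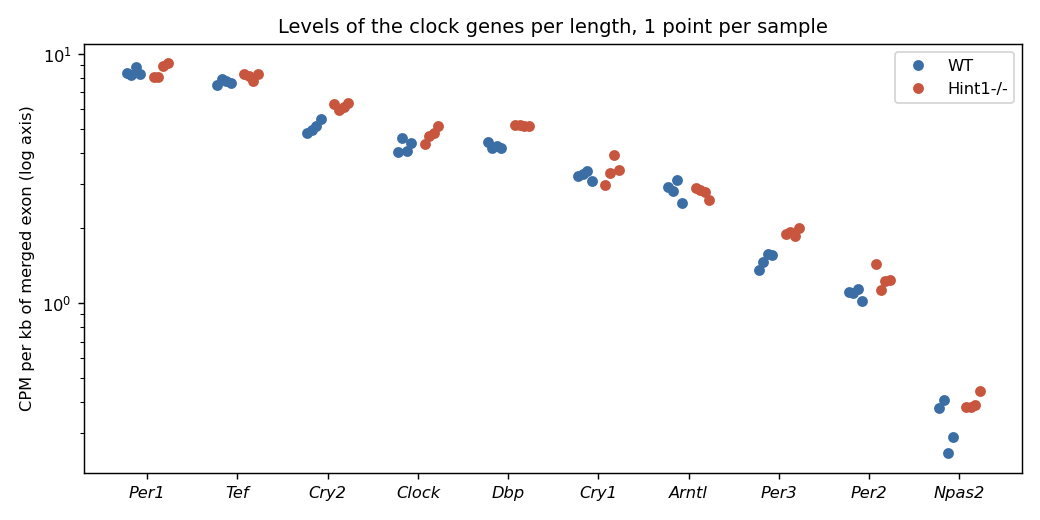
Level of each clock gene per length, in CPM per kilobase of merged exon on a log axis, with 1 point per sample for WT (blue) and *Hint1*-/- (red) MASMCs, ordered by the WT mean. The genes span from 0.332 (*Npas2*) to 8.43 (*Per1*) in WT, far more than the genotypes differ for any of them.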

How the data were processed

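RNA from 8 PDGF-BB-treated MASMC samples (4 per genotype, as the labels give it) had been sequenced as short reads. The authors deposited estimated counts per gene symbol, 1 file per sample, without normalization. The methods name HISAT2 and mm10, and the submitters' processing notes list Bowtie2, RSEM 1.3.1 and DESeq2 1.4.5 without roles. The gene annotation is not given in the sources used here. Counts were rounded to whole numbers, filtered with filterByExpr, scaled by TMM (factors 0.993 to 1.01) and tested with edgeR 4.0.16 (glmQLFit, glmQLFTest, genotype only) in R 4.3.3, with Benjamini-Hochberg adjustment over all genes. Standard errors are the log2 fold change over the square root of F. Log2 CPM used a prior count of 2. Alternatives were DESeq2 1.42.0, limma-voom (limma 3.58.1), other normalizations and filters, a replicate block and each sample left out. The pipeline was tested on simulated data. Gene positions and lengths came from GENCODE M21 (GRCm38) and promoters from RefSeq (GRCm38.p6), matched by symbol.

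All 10 clock genes, the genes called in each list, and *Nr1d1*, *Nr1d2*, *Bhlhe40*, *Bhlhe41*, *Arntl2*, *Ciart* and *Nfil3* were to be named by rule, and other genes were chosen after their values were seen. The genes and lists were chosen with earlier results of these data known. Pairs of samples within a genotype differed by 2.1 to 5.47 in chi-square per gene, above the value of about 1 that counting alone gives, so none was a library deposited again. The values of 1 listed gene are not reported here.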

Additional observations from a re-analysis of the deposited data

Results flagged for a closer look

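Among the 20 sets of 4 samples (10 clock genes in each genotype), 1 held a sample far from the others. For *Npas2*, *Hint1*-/- replicate 4 was at 2.12 CPM while the other 3 *Hint1*-/- samples lay between 1.83 and 1.87 CPM, a gap of 0.852 of the group's whole range, above the critical value of Dixon's test at the 95% level. Chance flags about 1 in 20 such sets, and the gap corresponds to 44 counts against 38 or 39.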

How the results depend on the processing

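Adding the fold limit of 1.5 to the limit on p cut the calls from 2907 to 383 over all genes, from 4 to 0 for the clock genes and from 3 to 0 for the other 24 clock regulators. Without that limit, the 16 alternatives gave between 3 and 4 called clock genes, between 3 and 4 other regulators and between 2258 and 3082 genes in all, and leaving out each sample in turn gave 2258 to 2909. *Per3*, *Cry2* and *Dbp* were called in all 16 and *Clock* in 9. The sign turned when single samples were left out for uncalled genes, with log2 fold changes from −0.09 to 0.01 for *Arntl* (0.01 without WT replicate 3), from −0.01 to 0.05 for *Per1* (−0.01 without *Hint1*-/- replicate 4) and from −0.01 to 0.13 for *Cry1* (−0.01 without *Hint1*-/- replicate 3). The cause was not tested. The replicate block gave 4 clock genes, 3 other regulators and 3082 genes. Deviations of same-numbered samples correlated at −0.045, 0.081, 0.009 and 0.023 across genes, and not every sample correlated best with its own number. These values show no pairing by number, but they cannot exclude a batch shared by same-numbered samples. Depth limits *Npas2*, at 25 to 44 counts, most.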
